A study of Mus musculus with 2 samples.

Results

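Glutathione transferases, UDP-glucuronosyltransferases and sulfotransferases join a small polar group to a drug, hormone, bile pigment or reactive metabolite so that it can be excreted. The genes described here are the 66 protein-coding mouse genes whose symbol begins with Gsta, Gstm, Gstp, Gstt, Gsto, Gstz, Gstk, Mgst, Ugt1, Ugt2, Ugt3 or Sult, out of 21474 protein-coding genes with a symbol. They comprise 25 glutathione transferases (GST), 20 UDP-glucuronosyltransferases (UGT) and 21 sulfotransferases (SULT). Total RNA was sequenced from liver of B6NCrl mouse embryos at 14.5 days of gestation, in 2 libraries (replicate 1 and replicate 2) of 1 untreated group made from 10 ng of RNA each. Each library is labelled as the liver of 1 pup, and the same labels give the sex as male and female pooled. The livers were collected on different days, so day and liver cannot be told apart. No treatment, genotype or age was contrasted, and the only comparison the design allows is between the livers of this group, without a test between conditions.

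Each of the enzyme systems needs its own activated donor. GST enzymes use glutathione, a tripeptide made in the cytosol, and are either soluble enzymes or, in the Mgst family, membrane proteins. UGT enzymes sit in the endoplasmic reticulum and take glucuronic acid from UDP-glucuronate, and SULT enzymes are cytosolic and take sulfate from PAPS. In the adult liver hepatocytes are the main site of these reactions, whereas the fetal liver at mid-gestation is also the main organ of blood formation.

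Levels are given in TPM, a gene's share of all transcripts after scaling for transcript length, and depth in estimated reads, which are not. The libraries held 39998450 (replicate 1) and 28848861 (replicate 2) estimated reads, of which 83168 and 61785 lay on the 66 genes, or 0.224% and 0.230% of the reads on mouse genes. All 6 hepatoblast markers were detected, with summed levels of 12586 and 13453 TPM, and Afp was the highest of them. All 6 erythroid markers were detected as well, at 142714 and 137446 summed TPM, led by the globin genes. Markers of macrophages (6 of 6 detected, 235 and 237 summed TPM), megakaryocytes (5 of 5, 541 and 679), endothelium (5 of 5, 81.7 and 82.4) and stellate cells and mesenchyme (5 of 5, 116 and 125) were present too. Of the bile duct markers 2 of 4 were detected (4.35 and 2.89 summed TPM), of the gut markers 1 of 3 (11.5 and 11.9, nearly all Fabp2) and of the kidney markers 0 of 3. The gut marker Cdx2 and the kidney markers Umod and Slc34a1 had 0 reads in both livers. Tissue of several cell types was sequenced in bulk, so fewer cells of a type and less RNA per cell cannot be told apart.

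Of the 66 genes, 30 reached 1 TPM in both livers, the level called detected here, which is 45.5% against 49.2% of all 21474 protein-coding genes. The 30 were 21 of 25 GST genes, 5 of 20 UGT genes and 4 of 21 SULT genes. A further 3 genes reached 1 TPM in 1 liver only, and 20 had reads but stayed under 1 TPM in both. The other 13 had 0 estimated reads in both (19.7%, against 25.1% of all protein-coding genes). The median level over all 66 genes was 0.85 TPM, and over all protein-coding genes 1.05 TPM. Among detected genes the medians were 14.5 TPM for the conjugation enzymes and 10.2 TPM for protein-coding genes. For scale, 21 of the 100 cytochrome P450 genes, which carry out the oxidation steps that often precede conjugation, were detected, at 257 and 263 summed TPM.

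Transcript abundance was held mostly by the GST genes. Summed over the 66 genes it came to 2063 TPM in replicate 1 and 2176 TPM in replicate 2. GST genes held 95.0% and 94.6% of it, UGT genes 4.02% and 4.36%, and SULT genes 0.974% and 0.991%. The order GST, UGT, SULT was the same in both livers, with no overlap. Mgst3 and Gstp1 alone held 45.6% and 45.9%, and the 5 highest genes, all of them GST genes, held 74.8% and 74.2%.

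**Figure D1:**
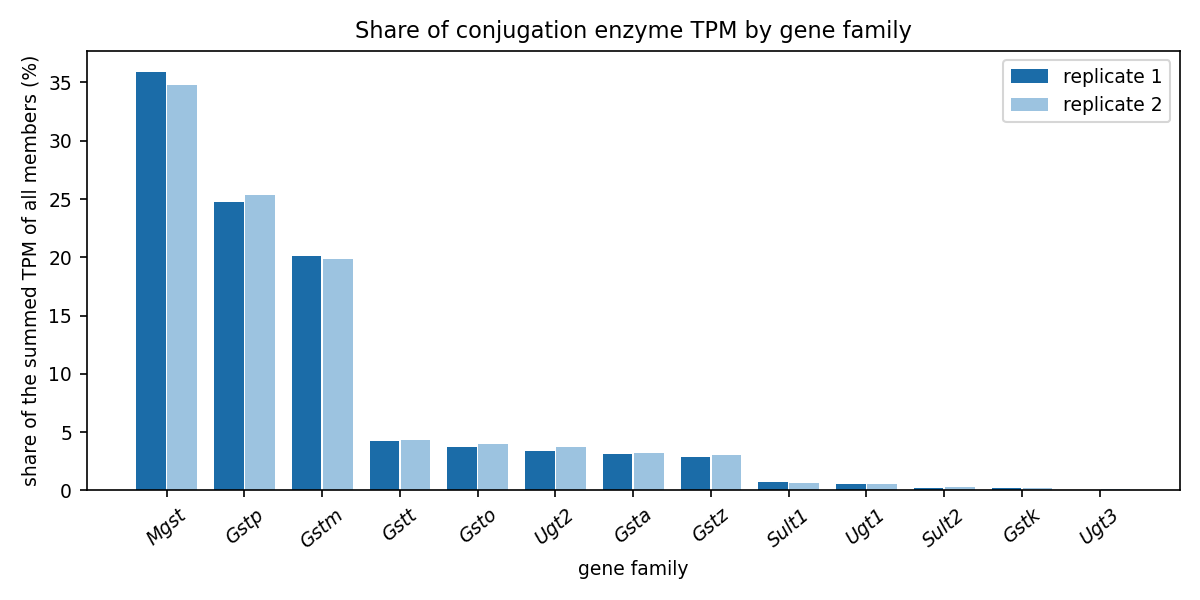
Share of the summed TPM of all 66 genes (%) held by each gene family, in replicate 1 (dark bars) and replicate 2 (light bars), for families whose summed mean is at least 1 TPM. The Mgst family held 35.9% and 34.8% and stands first, followed by Gstp and Gstm, while no UGT or SULT family reached the Gstt level.

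The membrane-bound GST genes were led by Mgst3 (chr1:167371966-167393841, minus strand, mm10), an enzyme with glutathione peroxidase activity and a role in leukotriene C4 synthesis. Mgst3 had 486 TPM from 20304 reads in replicate 1 and 501 TPM from 14537 reads in replicate 2, a mean of 494 ± 10.5 TPM (SD, n = 2), and ranked 156th among all protein-coding genes by mean level. Mgst1 (chr6:138140316-138156755, plus strand), found in the endoplasmic reticulum and the outer mitochondrial membrane, had 239 and 238 TPM. Mgst2, which can also make leukotriene C4, had 15.5 and 17.1 TPM. Thus the 3 genes kept the order Mgst3, Mgst1, Mgst2 in both livers, and Mgst3 stood 31.4-fold and 29.4-fold above Mgst2. The TPM of Mgst1 was divided over several transcripts in like proportions in both livers: Mgst1-207 held 52.9% and 53.3% of it, and Mgst1-204 held 28.4% and 27.3%. By estimated reads Mgst1-207 led as well, and Mgst1-201 came second with 28.7% and 29.9%, above Mgst1-204 with 19.5% and 18.6%.

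The pi class of soluble GST genes comprises Gstp1, Gstp2 and Gstp3, which lie side by side within 24.2 kb of chromosome 19 (chr19:4035407-4059569, minus strand) and encode enzymes that conjugate a wide range of electrophiles. The first 90 coding bases of their transcripts, read from mm10 at the GENCODE M21 coordinates, are shown because the likeness of the copies decides how far their reads can be separated; capitals mark bases that differ from Gstp1.
Gstp1-201: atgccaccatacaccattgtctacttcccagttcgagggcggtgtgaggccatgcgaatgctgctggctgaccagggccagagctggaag
Gstp2-201: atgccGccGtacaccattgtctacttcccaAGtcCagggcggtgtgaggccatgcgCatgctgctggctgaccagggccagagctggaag
Gstp3-202: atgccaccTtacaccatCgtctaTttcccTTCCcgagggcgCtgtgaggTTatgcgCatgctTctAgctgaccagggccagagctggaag

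In this stretch Gstp2 differs from Gstp1 at 6 bases and Gstp3 at 13. Over the whole coding sequence of 630 bases, Gstp2 is 98.1% identical to Gstp1, with 12 differences, and Gstp3 is 71.8% identical, with 178. Gstp1 had 453 and 497 TPM, the second highest mean of the 66 genes (475 ± 31.0 TPM, SD, n = 2). Gstp3 had 53.8 and 49.3 TPM, so that Gstp1 exceeded it 8.43-fold and 10.1-fold. Gstp2 had 3.92 and 4.65 TPM, 116-fold and 107-fold below Gstp1. All 3 genes were detected in both livers, and their order did not change. Gstp1 and Gstp3 rested on 1353 or more reads each in replicate 1 and on 866 or more in replicate 2. Gstp2 rested on 110 and 90.6 estimated reads, and the deposited posterior SD of that estimate, which measures how uncertainly multiply mapping reads were assigned, was 10.9% and 12.0% of it. It was 0.106% and 0.127% for Gstp1 and 0 for Gstp3. Of all stretches of 100 bases in the GENCODE M21 transcripts, 46.9% for Gstp2, 25.1% for Gstp1 and 0 for Gstp3 also occur in another gene. The versions of Gstp1-201 and Gstp2-201 that were counted differ from those in M21, so these shares only approximate the counted sequences. By its posterior SD the Gstp2 level is uncertain in a way that the Gstp1 and Gstp3 levels are not. Transcript Gstp3-202 held 68.2% and 79.3% of the TPM of its gene.

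The mu class was the one large family in which every member was detected: 7 of 7 Gstm genes, all within 149.1 kb of chromosome 3 (chr3:107895821-108044894), with 415 and 432 summed TPM. Mu class enzymes conjugate epoxides and other electrophiles of drugs and carcinogens. Gstm1 had 203 and 228 TPM, and Gstm5 had 160 and 151 TPM. These genes stood apart from the other 5, none of which passed 15.3 TPM in either liver. Gstm4 had 14.1 and 14.4 TPM, Gstm7 had 13.1 and 15.3 TPM, and Gstm6 had 10.5 and 10.4 TPM. The ranges of Gstm4 and Gstm7 overlap, so their order is not settled by these livers. Gstm3 had 9.56 and 9.30 TPM and Gstm2, the lowest, 3.94 and 3.61 TPM, with Gstm1 51.6-fold and 63.1-fold above it. Among the 16 members at a mean level of at least 5 TPM that have several transcripts in the files, only Gstm4 had different leading transcripts in the livers. Its transcript Gstm4-203 held 54.2% of its TPM in replicate 1 and 41.2% in replicate 2, and Gstm4-201 held 45.8% and 55.0%. By estimated reads Gstm4-203 held 50.1% and 38.1% and Gstm4-201 held 49.9% and 60.1%. The pair was thus even in reads in replicate 1, and the lead there came from scaling by length. In Gstm5, transcript Gstm5-201 led in both livers with 63.4% and 73.6%. A 178-base stretch of Gstm5 exons lies opposite exons of the antisense gene 4933431E20Rik, which had a mean of 2.66 TPM.

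Among alpha class genes, whose products are abundant in adult liver, Gsta3 (chr1:21240589-21265661) had 39.2 and 41.4 TPM and Gsta4 25.6 and 27.7 TPM. The Gsta3 enzyme is known in mice for conjugating the epoxide of aflatoxin B1, and the Gsta4 enzyme for removing the lipid peroxidation product 4-hydroxynonenal. Gsta3 was 1.53-fold and 1.49-fold above Gsta4, and the ranges of the pair did not overlap. The remaining alpha genes were near the limit of counting: Gsta1 had 0.20 and 0.12 TPM from 6.14 and 2.14 reads, and Gsta2 had 0.23 and 0.35 TPM from 4.86 and 7.86 reads. At 3 reads, the number that a count of 0 still allows with 95% confidence, these genes would lie at 0.0962 and 0.164 TPM for Gsta1 and at 0.144 and 0.134 TPM for Gsta2. Gsta1 was therefore above that floor in replicate 1 and below it in replicate 2. Of all 100-base stretches in Gsta1 transcripts 80.6% also occur in another gene.

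The theta, omega, zeta and kappa classes have few members each. Gstt1, a theta class enzyme that acts on small halogenated compounds, had 56.1 and 62.0 TPM, Gstt2 had 23.0 and 21.9 TPM, and Gstt3 had 7.58 and 9.88 TPM. Gstt4 had 3 reads in replicate 1 and 0 in replicate 2. The 4 theta genes lie within 63.3 kb of chromosome 10, and the order Gstt1, Gstt2, Gstt3 held in both livers. Gsto1, which reduces dehydroascorbate and methylated arsenic compounds, had 77.0 and 86.9 TPM, whereas its neighbour Gsto2 on chromosome 19 had 0.23 and 0.10 TPM from 11 and 2 reads. Gstz1, the maleylacetoacetate isomerase of tyrosine breakdown, had 59.1 and 65.4 TPM. Exons of Gstz1 lie opposite 465 bases of Pomt2 exons, and Pomt2 had a mean of 2.86 TPM. Gstk1, a mitochondrial and peroxisomal enzyme, had 5.09 and 4.60 TPM, the lowest level among the leading genes of the GST classes.

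**Figure D2:**
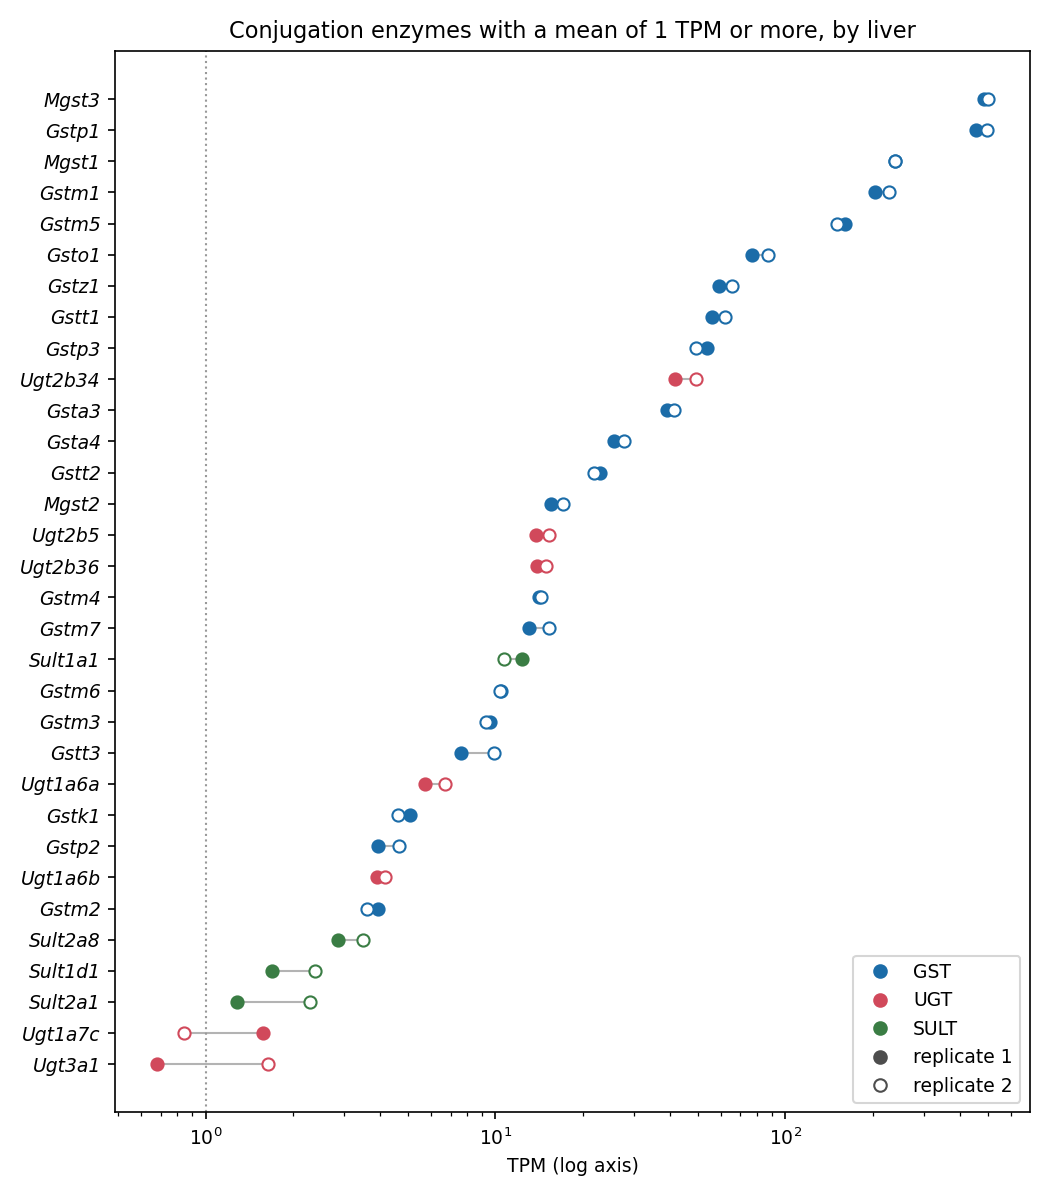
TPM (log axis) of the 32 conjugation enzyme genes averaging at least 1 TPM, in replicate 1 (filled) and replicate 2 (open), in order of the mean. Blue marks GST, red UGT and green SULT genes, and the dotted line is 1 TPM. The 9 highest genes are GST genes, Ugt2b34 is the highest UGT gene at 41.6 and 49.0 TPM, and Ugt1a7c and Ugt3a1 are the genes whose livers lie on opposite sides of 1 TPM.

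The UGT genes were sparse by comparison with the GST genes: 5 of 20 were detected and 6 had 0 estimated reads. The largest part of their abundance came from a single gene, Ugt2b34 (chr5:86889767-86906937, minus strand), with 41.6 and 49.0 TPM from 5142 and 4210 reads. Enzymes of the Ugt2b family glucuronidate steroids and many drugs. Ugt2b5 had 13.8 and 15.3 TPM and Ugt2b36 had 13.9 and 15.0 TPM. The ranges of Ugt2b5 and Ugt2b36 overlapped almost entirely, and Ugt2b34 stood 3.02-fold and 3.21-fold above Ugt2b5. Ugt2b35 had 0.98 and 0.77 TPM and Ugt2b1 0.20 and 0.24 TPM. Ugt2b37 and Ugt2b38 had no reads in replicate 1 and 2.03 and 1.34 estimated reads in replicate 2, and Ugt2a2 and Ugt2a3 had 0 in both. These 9 genes lie in 1 cluster on chromosome 5 together with Sult1b1, Sult1d1 and Sult1e1 (chr5:86889767-87591594), and 4 of the 12 genes there were detected.

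The Ugt1a locus (chr1:88055388-88220002, plus strand) is 1 transcription unit with alternative first exons: each enzyme has its own first exon, which sets the substrate, spliced to the same later exons. The 40 coding bases on each side of that junction are shown for the genes with the most reads and for Ugt1a1, the enzyme that glucuronidates bilirubin, in lower case for the first exon and in capitals for the shared exons (mm10, GENCODE M21 transcripts).
Ugt1a6a-202: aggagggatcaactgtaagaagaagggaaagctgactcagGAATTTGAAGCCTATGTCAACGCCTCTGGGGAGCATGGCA
Ugt1a6b-202: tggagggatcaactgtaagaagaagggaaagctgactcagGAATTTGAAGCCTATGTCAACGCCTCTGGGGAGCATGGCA
Ugt1a7c-201: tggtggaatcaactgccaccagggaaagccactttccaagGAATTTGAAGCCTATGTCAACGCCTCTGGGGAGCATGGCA
Ugt1a1-201: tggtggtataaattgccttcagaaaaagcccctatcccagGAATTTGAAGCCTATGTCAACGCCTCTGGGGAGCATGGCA

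All 9 Ugt1a transcripts compared carry the same 735 coding bases after the junction, between 45.8% and 46.4% of their coding sequence, so reads from those exons could be divided among the genes only by the counting model. The locus as a whole received 1071 and 772 estimated reads and 11.5 and 11.9 summed TPM, of which Ugt1a6a, Ugt1a6b and Ugt1a7c had nearly all. Ugt1a6a, whose product glucuronidates small planar phenols, had 5.70 and 6.68 TPM from 505 and 418 estimated reads. Ugt1a6b had 3.90 and 4.15 TPM from 357 and 266. The order of the pair was the same in both livers, with a ratio of 1.46 and 1.61. Their first exons hold 858 coding bases each and are 96.97% identical, with 26 differences, and the posterior SD was 4.74% and 5.25% of the estimated reads of Ugt1a6a and 6.03% and 7.43% of those of Ugt1a6b. Ugt1a7c had 1.58 and 0.84 TPM from 182 and 76.8 estimated reads, with a posterior SD of 8.98% and 16.1%. Ugt1a9 had 0.28 and 0.19 TPM. Ugt1a1 itself had 2.66 estimated reads and 0.03 TPM in replicate 1, with a posterior SD of 105% of the estimate, and 0 reads in replicate 2. Both values were below the floor of 3 reads, which for Ugt1a1 is 0.0338 and 0.0486 TPM, so Ugt1a1 was not detectable at this depth. Ugt1a2, Ugt1a5, Ugt1a8 and Ugt1a10 had 0 estimated reads in both livers, with a posterior SD between 1.95 and 2.94 reads. These are estimates after reads of the shared exons were divided, not observed counts of 0.

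**Figure D3:**
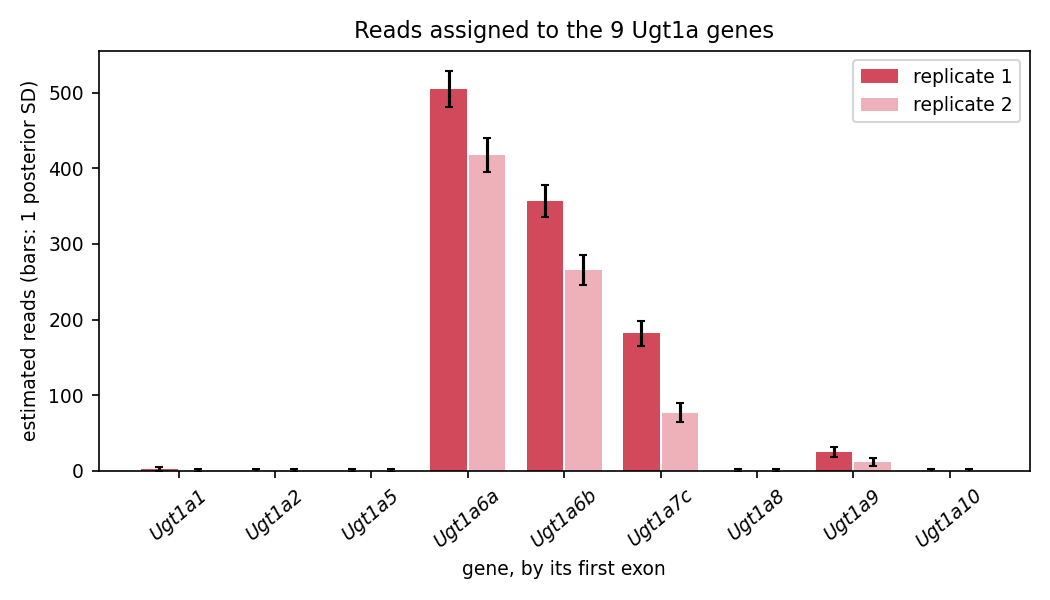
Estimated reads assigned to each of the 9 Ugt1a genes in replicate 1 (dark bars) and replicate 2 (light bars), with 1 posterior SD of the assignment as error bars. Ugt1a6a is highest with 505 and 418 reads, followed by Ugt1a6b and Ugt1a7c, and Ugt1a1 had 2.66 reads in replicate 1 and 0 in replicate 2.

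Ugt3a1 and Ugt3a2, neighbours on chromosome 15 whose human counterparts use other sugar donors than UDP-glucuronate, lay on either side of the detection level. Ugt3a1 had 0.68 TPM from 61 reads in replicate 1 and 1.64 TPM from 102 reads in replicate 2. Ugt3a2 had 0.39 TPM from 35 reads and 1.12 TPM from 69 reads. Both were thus under 1 TPM in replicate 1 and above it in replicate 2, with folds, replicate 1 over replicate 2, of 0.415 (95% counting interval 0.297 to 0.575) for Ugt3a1 and 0.348 (0.225 to 0.530) for Ugt3a2. The posterior SD of the estimated reads was 0 for both genes.

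The SULT genes were the least abundant system, with 20.1 and 21.6 summed TPM over 21 genes, and 4 were detected. Sult1a1 (chr7:126672865-126676432, minus strand), the phenol sulfotransferase, had 12.4 and 10.7 TPM from 605 and 369 reads and was the highest. A 61-base stretch of its exons lies opposite exons of Sgf29, which had a mean of 24.6 TPM. Sult2a8, a bile acid sulfotransferase of mouse liver, had 2.86 and 3.50 TPM, 4.32-fold and 3.07-fold below Sult1a1. Sult1d1, which sulfates catecholamines, had 1.69 and 2.39 TPM, and Sult2a1, a hydroxysteroid sulfotransferase, had 1.28 and 2.30 TPM. The ranges of Sult1d1 and Sult2a1 overlapped, while those of Sult1a1 and Sult2a8 lay above both.

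The other 17 SULT genes stayed under 1 TPM in both livers. Sult1b1, which acts on thyroid hormones, had 0.78 and 0.87 TPM, Sult5a1 had 0.45 and 0.65 TPM, and Sult2b1, the cholesterol sulfotransferase of skin, had 0.33 and 0.13 TPM. Sult2a2 had 0.22 and 0.40 TPM from 5.89 and 7.44 estimated reads, and Sult2a3, Sult2a4, Sult2a5 and Sult2a6 had no more than 5 reads in either liver. Sult6b1 had 5 reads and 1 read, and Sult4a1, known from the brain, had 1 read in each. In both livers 0 reads were found for 7 SULT genes: Sult1c1, Sult1c2, Sult1e1 (the estrogen sulfotransferase), Sult2a7, Sult3a1, Sult3a2 and Sult6b2. Over the 13 conjugation enzyme genes with 0 estimated reads, the floor of 3 reads lay between 0.0337 and 0.0916 TPM in replicate 1 and between 0.0485 and 0.132 TPM in replicate 2. For the Ugt1a genes among the 13, that floor leaves out the uncertain division of shared reads. On chromosome 7, 8 of the Sult2a genes lie within 870.3 kb, and only Sult2a1 and Sult2a8 of that cluster were detected.

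Position was shared by most of the genes: 54 of 66 lie in 11 clusters in which neighbouring members are no more than 1000000 bases apart. Detection ran through whole clusters in the Gstm and Gstp loci, 7 of 7 and 3 of 3, and was split in the others with a detected member. The Sult3a and Sult1c pairs had 0 reads throughout. Promoter windows of 300 bases (RefSeq, GRCm38.p6, 250 bases before to 50 after the start) were at hand for 58 of the 66 genes, 26 of them detected. They were searched on both strands for 6 motifs. Each gene counts once, if any of its windows holds the letters, so shares of windows below are shares of genes. The 27018 genes in the background were not limited to protein-coding genes, unlike the 21474 used elsewhere. The core of the antioxidant response element, TGACNNNGC, occurred in 4 of 26 windows of detected genes (Gsta3, Gstm5, Gstm7 and Mgst1), in 0 of 32 windows of the others and in 14.0% of the 27018 windows of all genes. At 15.4%, the share in detected genes was near that of all genes. The letters GTTAAT, one arm of the HNF1 site, occurred in 14 of 58 windows (24.1%), against 8.25% of all windows, and in 10 of 32 windows of genes not detected against 4 of 26 windows of detected genes. The TATA box letters TATAAA occurred in 24.1% of the members' windows against 15.7% of all windows, and the GATA site AGATAA in 19.0% against 12.7%. The HNF4 site CAAAGTCCA occurred in 1 of 58 windows (1.72%) against 0.555%. The core of the xenobiotic response element, GCGTG, occurred in 20.7% of the members' windows against 35.2%. A match describes letters in the window, not a bound site.

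The livers agreed closely on most of these genes. Among the 32 averaging at least 1 TPM, the log2 ratio of TPM + 1, replicate 1 over replicate 2, ran from -0.65 for Ugt3a1 to 0.49 for Ugt1a7c. On this scale 0 of 32 differed 2-fold, against 0.194% of the 10806 protein-coding genes at that level. The added 1 TPM understates differences of low genes, and without it Ugt3a1 was 2.41-fold higher in replicate 2. The 20 genes averaging at least 10 TPM stayed between -0.23 and 0.19. Their SD was 6.32% of the mean in the median and 11.6% at most, and the median over all protein-coding genes at that level was 5.71%. The median log2 ratio of the 32 genes was -0.12, beside -0.10 over all 10806. On TMM-scaled CPM, counts scaled to library size without length, the median of all protein-coding genes shifted by 0.10. On the TPM scale 22 of the 32 genes (68.8%) were lower in replicate 1, beside 74.0% of all protein-coding genes at that level, and on TMM-scaled CPM 17 of the 32 were. Directions of the smaller ratios, Mgst3, Gsta3, Gsta4 and Gstm4 among them, therefore depend on the scale.

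Counting error alone could be compared with these differences. The 95% counting interval of the fold left out 1 for 19 of 32 genes (59.4%, against 52.8% of all protein-coding genes), with 4 above 1 (12.5%, against 7.77%) and 15 below (46.9%, against 45.0%). The 4 above were Gstm5, Gstp3, Sult1a1 and Ugt1a7c. These intervals are on the TPM scale. On TMM-scaled CPM Mgst3, 1 of the 15 below, had a log2 ratio of 0.0748, while the rest of the 15 stayed under 0, Gstp1 at -0.0151. Gstt1, Gstz1 and Ugt2b5 also came close to 0 there, at -0.0145, -0.0271 and -0.0315. No interval was computed on that scale, so how many of the 19 calls would hold on it was not tested. Calls close to a fold of 1 therefore depend on the scale. For Gstm5 the fold was 1.06 (interval 1.02 to 1.11), for Sult1a1 1.15 (1.01 to 1.31) and for Ugt1a7c 1.88 (1.43 to 2.49). The folds farthest below 1 besides those of the Ugt3 genes were 0.557 (0.371 to 0.815) for Sult2a1, 0.707 (0.565 to 0.884) for Sult1d1 and 0.767 (0.679 to 0.867) for Gstt3. Intervals and floors cover counting error only, and reads amplified from the same molecule are not independent. A posterior SD over 10% of the estimated reads was found for Gstp2 and Ugt1a7c, 2 of 32 genes (6.25%, against 1.13%). In the order of the 30 detected genes, 19 of 29 neighbouring pairs had ranges that did not overlap, and 23 were in the same order in both livers.

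**Figure D4:**
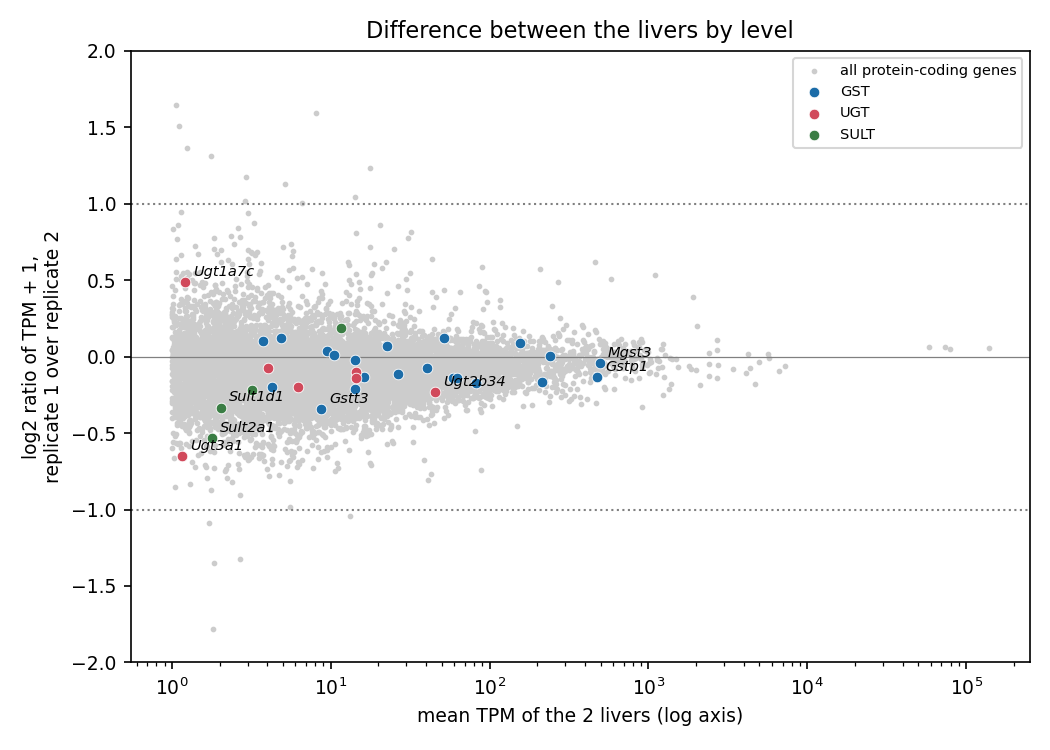
Log2 ratio of TPM + 1, replicate 1 over replicate 2, against the mean TPM of the livers (log axis), for the 10806 protein-coding genes averaging at least 1 TPM (grey) and the 32 conjugation enzyme genes among them (colours as named). All 32 lie inside the dotted 2-fold lines, the widest at -0.65 (Ugt3a1) and 0.49 (Ugt1a7c), while 5 grey genes lie outside the plotted range.

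Genes that make, recycle, carry or use the donors were detected in most cases. Of 15 genes of glutathione synthesis and recycling 13 were detected, with a median of 38.3 TPM. Gpx1, the cytosolic glutathione peroxidase that is abundant in red cell precursors, had 5714 and 5753 TPM and was the highest by far. Glrx5, a mitochondrial glutaredoxin needed for iron-sulfur clusters, had 590 and 642 TPM, and Gpx4, which reduces lipid peroxides, had 618 and 607 TPM. Erythroid markers were the most abundant of the marker lists here, and their part in these levels was not tested. The lowest gene of the list was Slc7a11, the cystine importer, at 0.12 and 0.03 TPM. The rate-limiting step of glutathione synthesis is held by Gclc, at 21.4 and 25.9 TPM, and its partner Gclm, at 204 and 240 TPM.

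Of 8 genes for UDP-glucuronate and related sugars 7 were detected, with a median of 7.05 TPM. Ugp2, which makes UDP-glucose, had 25.6 and 26.5 TPM, Nudt14, which hydrolyses UDP-glucose, had 12.0 and 14.6 TPM, and Ugdh, which oxidises UDP-glucose to UDP-glucuronate, had 11.7 and 11.8 TPM. The lowest was Ugt8a, the ceramide galactosyltransferase, at 0.24 and 0.04 TPM. Of 10 genes of PAPS supply 9 were detected, with a median of 6.34 TPM. The Golgi PAPS transporter Slc35b2 had 23.3 and 25.3 TPM, the sulfate transporter Slc26a1 10.2 and 12.7 TPM and sulfite oxidase, Suox, 6.58 and 8.66 TPM. The PAPS synthases had 6.63 and 6.46 TPM for Papss1 and 3.13 and 3.71 TPM for Papss2. The sulfate importer of kidney and gut, Slc13a1, had 0 reads in both livers. The lists for UDP-glucuronate and PAPS thus lay close together in their medians, and both below that for glutathione. All 3 lists also hold genes that use or carry the donors or related compounds, so these medians do not measure donor supply.

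**Figure D5:**
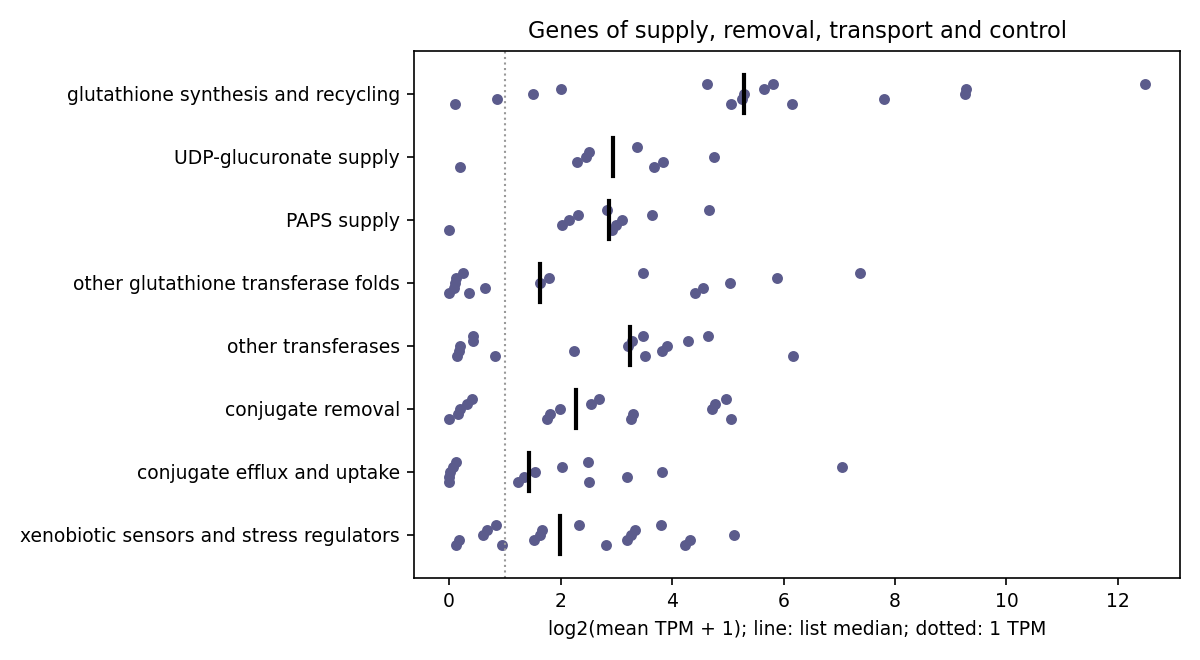
Level, as log2 of the mean TPM + 1, of each measured gene in 8 lists of genes around conjugation, with the list median as a black line and 1 TPM as a dotted line. Glutathione synthesis and recycling has the highest median (38.3 TPM) and efflux and uptake the lowest (1.72 TPM).

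Genes that act after conjugation were detected in part. Of 16 measured genes that remove conjugates or process them to mercapturates 11 were detected, with a median of 3.92 TPM, and these were led by the leucine aminopeptidase Lap3 (31.9 and 32.8 TPM), beta-glucuronidase, Gusb (30.6 and 30.3 TPM) and Bphl (24.9 and 28.0 TPM). Nat8, which acetylates cysteine conjugates in the last step to mercapturates, had 0 reads in both livers. Of 14 transporters 9 were detected, with a median of 1.72 TPM. Abcg2, which exports sulfated conjugates and porphyrins, had 133 and 131 TPM, Abcc5 had 12.5 and 13.8 TPM, and Abcc2, the canalicular exporter of glucuronide and glutathione conjugates, had 7.70 and 8.66 TPM. The uptake carrier Slco1a1 had 0 reads in both livers, and so had Slc22a6. Abcc6 had 3.21 and 6.19 TPM. Its log2 ratio of TPM + 1, -0.77, was the widest among genes of the 8 lists averaging at least 1 TPM.

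Of 18 xenobiotic sensors and stress regulators 12 were detected, with a median of 3.10 TPM. Nfe2l2, which encodes NRF2, the activator of many GST genes through the antioxidant response element, had 32.7 and 34.7 TPM, and its small Maf partners had 16.9 and 21.1 TPM for Mafg and 16.9 and 18.7 TPM for Mafk. The lowest was Ahrr, the repressor of the aryl hydrocarbon receptor, at 0.14 and 0.04 TPM. Of 16 other transferases and hydrolases 10 were detected, with a median of 8.47 TPM. The tyrosylprotein sulfotransferases had 24.3 and 24.0 TPM for Tpst2 and 18.6 and 18.3 TPM for Tpst1. Inmt, a methyltransferase, was the lowest at 0.07 and 0.14 TPM. No gene of these 8 lists averaging at least 1 TPM differed 2-fold between the livers on the scale of TPM + 1, which understates differences of low genes.

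Proteins with a glutathione transferase fold outside the named families, or related to the microsomal enzymes, were listed separately, and 8 of 15 measured genes were detected, with a median of 2.12 TPM. The highest were the elongation factor subunit Eef1g at 157 and 171 TPM, the chloride channel protein Clic4 at 53.7 and 62.8 TPM and Clic1 at 31.1 and 32.8 TPM, and the lowest was Gdap1, with 0 reads in both livers. The widest ratio in this list was that of Hpgds, a prostaglandin D synthase of the sigma class, with 3.33 and 1.60 TPM and a log2 ratio of 0.74. Alox5ap, which presents arachidonate to 5-lipoxygenase, had 27.3 and 17.5 TPM and a log2 ratio of 0.62. The 5 granulocyte markers, all detected, summed to 1872 and 1342 TPM, and each was higher in replicate 1. The mast cell and basophil markers, 3 of 5 detected, summed to 18.9 and 8.70 TPM. Most of that difference was Mcpt8, at 12.6 and 3.51 TPM, while Cpa3 had 2.66 and 2.88 TPM. Their part in the values of Hpgds and Alox5ap was not tested.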

How the data were processed

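Total RNA-seq of mouse embryonic liver was analysed from the gene and transcript tables of 2 libraries, on mm10 per the labels. Neither the aligner nor the quantification tool is named in the sources used here. The authors deposited expected counts (estimated reads per gene, not normalized), TPM and FPKM per row, the posterior SD of each count, and the percent of a gene's TPM held by each transcript, per the file headers. No source says if counting used strand, so genes with overlapping exons on opposite strands can share reads. Effective lengths were 99 bases below transcript lengths.

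Symbols, biotypes and positions were matched by unversioned identifier to GENCODE M21, which uses the same build. Replicates were taken from the labels' replicate numbers, and with 1 group of 2 libraries no test was run and no p-value computed. Ratios divide replicate 1 by replicate 2 after a pseudocount of 1 TPM, on the log2 scale, for genes averaging at least 1 TPM, which understates differences of low genes. Intervals of folds were exact 95% Clopper-Pearson intervals on the reads, scaled to TPM, and the floor was 3 reads. TMM factors came from rounded expected counts with edgeR 4.0.16 in R 4.3.3, and were 0.981 and 1.02. All other steps used scipy 1.17.1, pandas 2.3.3 and numpy 2.4.6 under Python 3.11.15, with plots by matplotlib 3.10.9. The ratio code was tested on simulated data. Shared sequence was counted as 100-base stretches found in GENCODE M21 transcripts of more than 1 gene. Many of these transcripts are not the versions to which the reads were assigned.

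The 66 genes and the gene lists were chosen with earlier results of these data known. The lists held 114 genes around conjugation, of which 112 were measured, 1 of them through a RefSeq synonym, and 11 lists of cell type markers. Genes named by rule were those averaging at least 5 TPM, the highest of each family, those 2-fold apart or with a posterior SD over 10% among genes averaging at least 1 TPM, and from every list its 3 highest genes and its lowest. A gene that the rule named is not reported here. Other genes were named after their values were seen, to account for every family member, for steps that make a donor, for overlaps and for the widest ratios. Alternatives were pseudocounts of 0.1 and 5, other detection levels, FPKM, TMM-scaled CPM, globin-free TPM, and each library alone.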

Additional observations from a re-analysis of the deposited data

Results flagged for a closer look

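A pseudogene outside the 66 genes, Gstp-ps (chr1:192073820-192074450, a processed pseudogene in GENCODE M21), had a mean of 3.92 ± 0.82 TPM (SD, n = 2), above the limit that a count of 0 allows. It had 3.34 TPM from 74.4 estimated reads in replicate 1 and 4.50 TPM from 69.6 in replicate 2. The posterior SD was 10.2% and 11.0% of those reads. Gstp2 had 3.92 and 4.65 TPM, with a posterior SD of 10.9% and 12.0%. What share of the pseudogene's reads came from Gstp1 transcripts was not tested. The other 4 pseudogene rows with these names, all in the Sult2a family, had 0 reads in both livers.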

How the results depend on the processing

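No paired analysis was possible because there is only 1 group. The count of 30 detected genes became 34 at 0.5 TPM and 23 at 5 TPM, and from 1 library alone it was 31 to 32. On TPM rescaled without globin genes it was 34. The GST share, 94.8% of TPM as the mean of the livers, was 88.1% of estimated reads, which are not scaled by length, and 93.2% without Mgst3, and 94.6% to 95.0% by library. With a pseudocount of 0.1, 1 gene, Ugt3a1, differed 2-fold, against 0 of 32 with a pseudocount of 1. The median log2 ratio of -0.12 was -0.0322 with no filter on level and -0.0121 on TMM-scaled CPM, and the median of all protein-coding genes moved by 0.10 in each. Of 124 single-gene values for the 31 family members named by rule, 93 moved by less than 1 SD and 31 by more. The SD is that of the gene's own 2 livers, so where these lie close a small change counts as a move. Mgst1 moved at 0.0595 on FPKM, from 0.00602, while Ugt3a1 did not at -0.818 on TMM-scaled CPM, from -0.652. These counts therefore do not measure stability alone. Depth limits the genes under about 10 reads, for which no order can be read.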
